A study of Mus musculus with 18 samples.

Results

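Vegfa, Slc2a1, Ldha, Pgk1, Pdk1, Bnip3, Egln3, Ankrd37, Car9 and Adm are classic targets of the cell's response to low oxygen, and several of them also serve glycolysis. They were chosen by name and found by Ensembl identifier through the GRCm38 gene annotation, 10 of 46078 gene identifiers. RNA sequencing had been done on mutant mice, labelled as carrying a homozygous deletion of Xist, and on control mice, labelled as carrying the heterozygous deletion. All animals were female, so the controls also carried a deleted Xist allele and kept a single intact one; the tables name the control columns WT. Primary tail-tip fibroblasts, which are connective tissue cells grown from the tip of the tail, gave 3 mutant and 3 control libraries. Spleen, liver and brain of postnatal day 1 each gave 2 mutant and 2 control libraries, 18 libraries in all. The sources used here do not state the age of the fibroblast donors, the part of Xist that was deleted or whether organs with the same number came from 1 pup. Expression is reported in units called signal here, the read count of a gene after the authors' scaling, which was done separately for each tissue.

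Hypoxia-inducible factor (HIF) is a transcription factor whose alpha subunit is marked for destruction by prolyl hydroxylases while oxygen is present. When oxygen is short the alpha subunit persists, pairs with Arnt, and binds hypoxia response elements, whose core reads ACGTG or GCGTG. Its targets bring in blood vessels and glucose, move energy production from mitochondria to glycolysis, remove mitochondria and feed back on HIF itself. Around birth the liver and spleen of mice make red cells, and the vessels of the brain import glucose through the product of Slc2a1.

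RefSeq (GRCm38.p6) listed 13 start sites for the 10 genes, and each had a promoter window of 250 bases before to 50 bases after it. The core was found on either strand in 11 of these 13 windows (84.6%), against 14380 of 32851 windows of all genes (43.8%). Member windows had a mean GC content of 61.0%, against 53.8% for all windows, and both cores contain CG. All 10 genes had the core in at least 1 window. These matches are letters in a window, and no binding was measured here. The stretches below show 1 match of the core in capitals for each of 8 genes, chosen because it lies before the start site and outside the annotated exons. The stretches of Ldha and Bnip3 also hold further matches, left in lower case. CACGT and CACGC are the core read on the opposite strand.
Slc2a1: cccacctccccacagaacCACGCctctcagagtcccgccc
Ldha: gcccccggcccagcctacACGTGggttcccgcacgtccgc
Pgk1: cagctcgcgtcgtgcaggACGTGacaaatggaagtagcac
Pdk1: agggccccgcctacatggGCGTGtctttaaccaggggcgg
Bnip3: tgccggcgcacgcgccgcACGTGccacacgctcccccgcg
Egln3: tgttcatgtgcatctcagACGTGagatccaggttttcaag
Ankrd37: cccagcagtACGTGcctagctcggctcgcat
Adm: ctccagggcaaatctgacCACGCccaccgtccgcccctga

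These stretches lie on GRCm38.p6 at chr4:119108666-119108705 on the plus strand (Slc2a1), chr7:46845739-46845778 plus (Ldha), chrX:106186932-106186971 plus (Pgk1) and chr2:71873128-71873167 plus (Pdk1). The others lie at chr7:138909592-138909631 minus (Bnip3), chr12:54204082-54204121 minus (Egln3), chr8:46000070-46000100 minus (Ankrd37) and chr7:110627585-110627624 plus (Adm). Each is upstream of a start site, the core beginning 61, 47, 150, 78, 107, 229, 241 and 54 bases before it in the order of the list. The Ldha window held 7 matches and the Bnip3 window 5, the most among the member windows. Pgk1 is the only X-linked member, at X 106187100 to 106203699.

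Each library held 12.4 M to 29.2 M reads assigned to genes, and 1 read was worth a signal of 0.0343 to 0.0751. Xist itself was lower in mutants, with no overlap between groups, at 8.66% of the control mean in fibroblasts, 7.22% in spleen, 32.8% in liver and 0.576% in brain. Defining markers stood with their labels: 6 hepatocyte markers summed to a signal of 81247 to 120028 in liver libraries, 6 neuron markers to 5975 to 6999 in brain libraries, and 6 fibroblast markers to 20101 to 36009 in fibroblast libraries. Spleen libraries carried erythroid, neutrophil and lymphocyte markers. Among them mutant 2 and control 1 stood apart: 6 markers of pancreatic acinar cells, which do not belong to spleen, summed to 6740 and 872 there, against 14.0 in mutant 1 and 9.12 in control 2. Spleen control 1 also had the highest erythroid sum of all libraries, 40217. Spleen mutant 1, with the fewest reads of all libraries (12.4 M), had reads in the most genes, 32381. The other spleen libraries had reads in 25166 to 26940 genes. Hepatocyte markers summed to 374 in spleen mutant 1 and 299.9 in control 1, against 26.2 in mutant 2 and 9.01 in control 2. The part of these traits in the spleen values was not tested. In bulk RNA, fewer cells of a type and less RNA per cell cannot be told apart.

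No member passed limma's adjusted p of 0.05 in any tissue, where such calls made up 0% of the genes tested in fibroblasts, 0% in spleen, 0% in liver and 0.0237% in brain. Slc2a1 was higher in mutant brain and Egln3 lower in mutant liver by DESeq2, an alternative count test on whole reads recovered from the signal, and Ldha was lower on average over tissues by DESeq2. DESeq2 called 0 members in fibroblasts and 0 in spleen, where it called 0.0229% and 0.989% of genes. The edgeR test on the same reads called no member in any tissue, where it called 0%, 0%, 0% and 0.0237% of genes. Of the 10 members tested in fibroblasts, 10 in spleen, 8 in liver and 8 in brain, those with an unadjusted limma p under 0.05 numbered 0, 1, 2 and 2, where 0.971%, 6.27%, 6.67% and 4.07% of all genes had one. The members' median log2 difference, mutant minus control, was 0.085 in fibroblasts, -0.031 in spleen, 0.045 in liver and 0.027 in brain, beside -0.0032, -0.071, 0.046 and -0.014 for all genes tested. Members above 0 numbered 7 of 10 in fibroblasts, 4 of 10 in spleen, 5 of 8 in liver and 5 of 8 in brain, beside 48.9%, 43.5%, 55.9% and 46.1% of all genes.

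**Figure D1:**
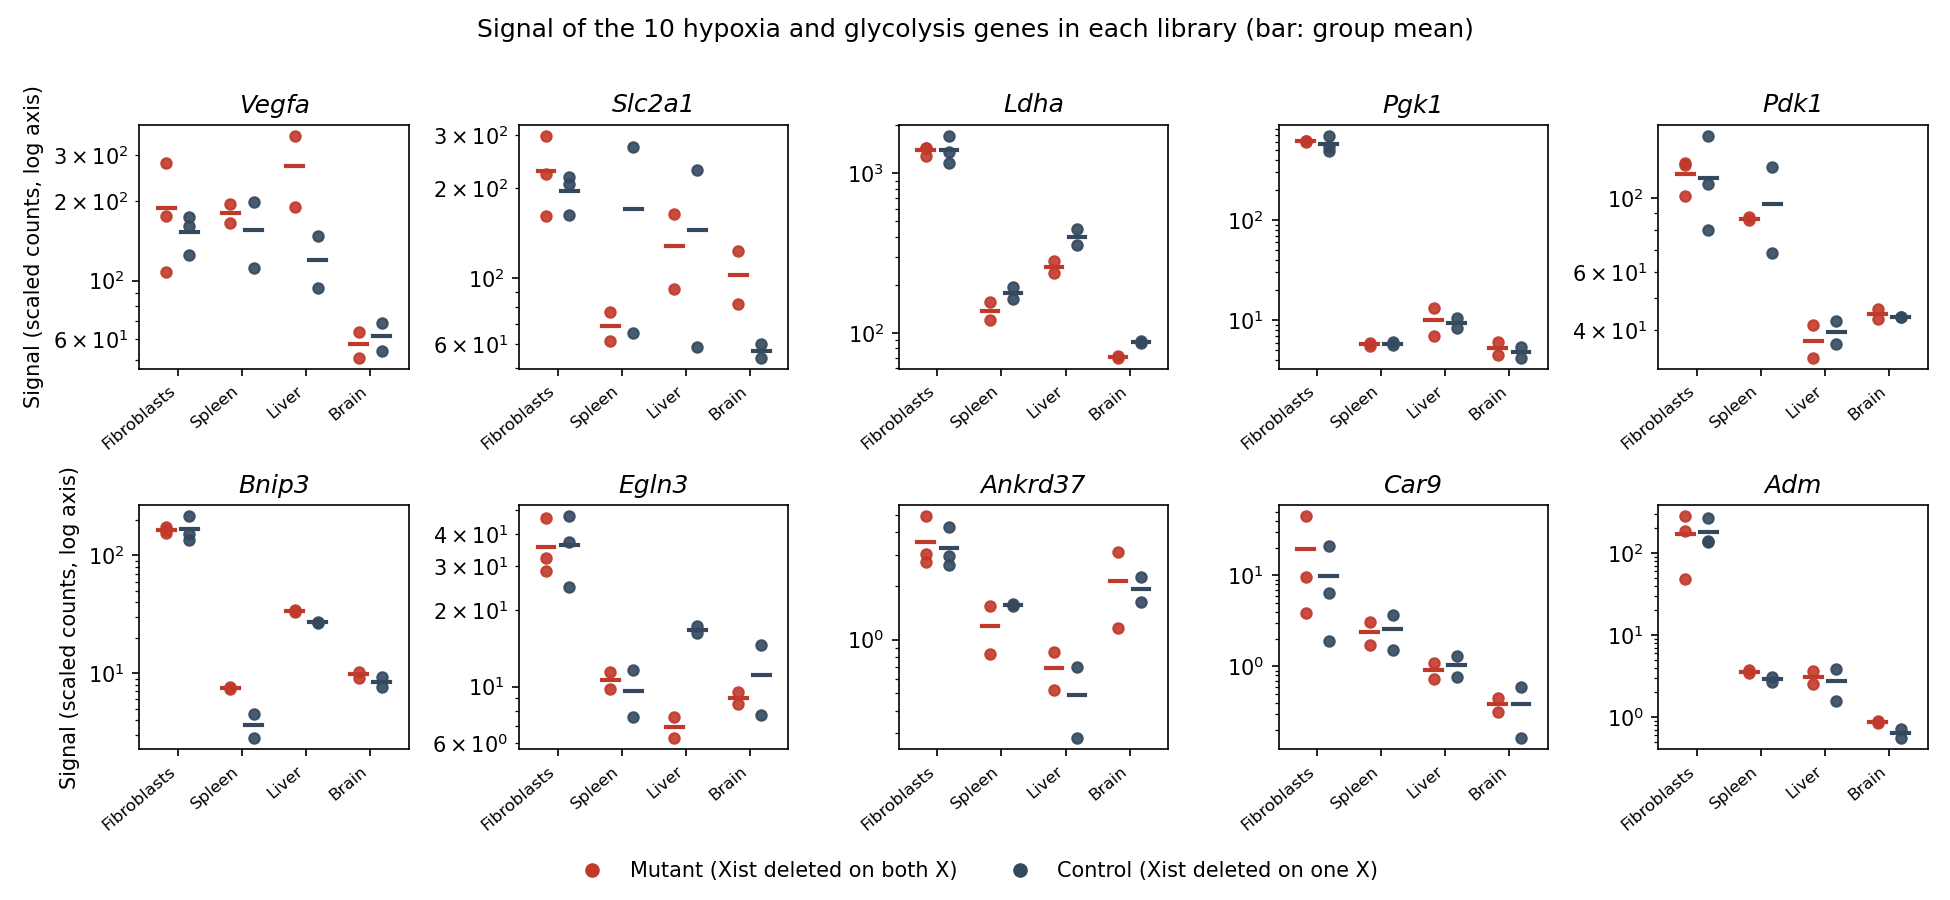
Signal (scaled counts, log axis) of each of the 10 genes in every library of fibroblasts, spleen, liver and brain, with mutant libraries in red to the left of control libraries in blue and bars at the group means. The signal of Pgk1, Bnip3, Ldha and Adm is higher in fibroblasts than in the organs in both genotypes, with each tissue scaled on its own. For Pgk1, Bnip3 and Ldha a higher level and a different treatment of reads from repeated sequence cannot be told apart. Mutants and controls are close to each other in most panels.

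Slc2a1 encodes the glucose transporter GLUT1. Brain signal was 123 and 81.9 in mutants, against 54.1 and 60.2 in controls, so both mutant libraries lay above both controls. The means were 103 ± 29.3 in mutants and 57.2 ± 4.29 in controls (SD, n = 2 each), 1.80-fold higher. Slc2a1 and no other tested member was higher in both brain mutants, as 13.8% of all brain genes were. limma gave a log2 difference of 0.81 ± 0.18 (SE) with an adjusted p of 0.503, and DESeq2 gave an adjusted p of 0.00588 where it called 0.242% of genes. Leaving out brain mutant 2 raised the log2 difference to 1.11 with a limma adjusted p of 0.00378, and leaving out mutant 1 lowered it to 0.52 with an adjusted p of 1.00. Each such test in an organ leaves a group of 1 library, which is assumed to vary like the remaining pair, so its p depends on how close that pair is.

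In spleen Slc2a1 measured 77.0 and 61.4 in mutants, against 274 and 65.3 in controls, and in liver 163 and 91.7 in mutants, against 231 and 58.7 in controls. In each organ 1 control library was the highest of the 4, and mutants and controls overlapped. The 10 erythroid markers summed to 17508 and 22006 in spleen mutants, against 40217 and 20699 in spleen controls. In liver they summed to 29331 and 12783 in mutants, against 23242 and 7716 in controls. In spleen controls, liver controls and liver mutants, the library with the higher Slc2a1 also had the higher erythroid sum. In spleen mutants the library with the higher Slc2a1 had the lower erythroid sum. The highest erythroid sum in liver was in mutant 1, while the highest Slc2a1 was in control 1. The part of red cell content in these values was not tested. Without spleen control 1 the spleen log2 difference was 0.074, against -0.96 with it. The liver difference ran from -0.91 to 1.05 as single libraries were left out. In brain, erythroid sums were 690.0 and 337 in mutants and 655 and 293 in controls. The 6 endothelial markers summed to 151 and 118 in brain mutants and 132 and 119.6 in brain controls. Both marker sums overlapped between the groups, and mutant 1, with the highest brain Slc2a1, was highest in both. The part of red cells and vessels in brain Slc2a1 was not tested. Fibroblast libraries overlapped too, with 299, 162 and 223 in mutants and 163, 206 and 218 in controls.

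**Figure D2:**
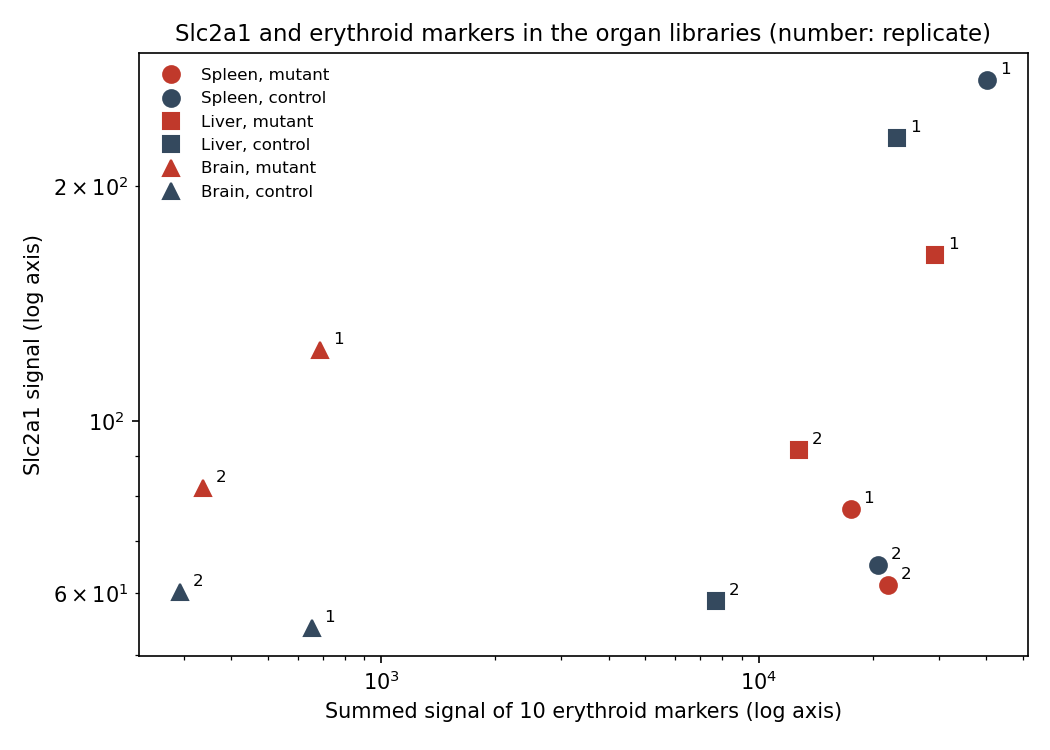
Slc2a1 signal against the summed signal of 10 erythroid markers in the 12 organ libraries (both log axes), red for mutants and blue for controls, with the replicate number beside each point. Spleen control 1 and liver control 1 and mutant 1, with the highest erythroid sums of their organs, are also highest in Slc2a1. The 2 spleen mutants are ordered the other way. In brain the 2 mutant libraries lie above the 2 controls in Slc2a1, and the erythroid sums of the groups overlap.

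Vegfa, the growth factor that calls in blood vessels, measured 353 and 189 in liver mutants, against 93.3 and 147 in liver controls. Both mutant livers were above both controls, though mutant 2 lay near control 2. The mean was 271 ± 116 in mutants and 120.1 ± 37.9 in controls (SD, n = 2 each), 2.26-fold higher, with a log2 difference of 1.14 ± 0.41 (SE) and an adjusted p of 0.733 by limma and 0.309 by DESeq2. In the other tissues the libraries overlapped: 280.3, 108 and 176 in fibroblast mutants against 174, 125 and 160.5 in controls, 166 and 195 in spleen mutants against 112 and 198 in controls, and 63.9 and 51.0 in brain mutants against 68.7 and 54.0 in controls. The endothelial marker sum was 321 in each liver mutant, against 221 and 298 in liver controls, and its part in the Vegfa values was not tested.

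Egln3 encodes a prolyl hydroxylase that marks HIF alpha subunits and is itself induced by HIF. In liver it measured 6.28 and 7.58 in mutants, against 16.3 and 17.3 in controls. These were narrow groups far apart, with means of 6.93 ± 0.92 and 16.8 ± 0.74 (SD, n = 2 each), so the mutant mean was 0.413 of the control mean. limma gave a log2 difference of -1.22 ± 0.22 (SE) with an unadjusted p of 0.00265 and an adjusted p of 0.454, and DESeq2 an adjusted p of 0.0129 where it called 1.35% of genes. The difference stayed between -1.35 and -1.10 as each liver library was left out. Elsewhere the groups overlapped, with 46.2, 32.3 and 28.6 in fibroblast mutants against 47.1, 37.4 and 24.7 in controls, 11.4 and 9.81 in spleen mutants against 7.58 and 11.7 in controls, and 9.56 and 8.56 in brain mutants against 14.6 and 7.72 in controls. Whether the response of Egln3 differed between tissues was tested directly, and the adjusted p of limma's F test was 0.929. The unadjusted p of that test was under 0.05 for 2 of 7 members, Bnip3 and Egln3, and for 5.19% of genes.

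Ldha, the lactate dehydrogenase subunit that turns pyruvate into lactate, was lower in both mutants than in both controls in all 3 organs. In spleen, liver and brain taken singly, 21.9%, 13.1% and 16.3% of all genes were lower in that way. The share of genes lower in all 3 was not counted. It measured 120.3 and 156 in spleen mutants, against 194 and 162 in spleen controls. In liver it measured 237 and 284 in mutants, against 357 and 448 in controls. Brain values were 70.0 and 71.2 in mutants, against 89.4 and 86.1 in controls, the tightest groups of the 3. The mutant mean was lower by 22.4% in spleen, 35.3% in liver and 19.6% in brain. Fibroblasts overlapped, with 1452, 1296 and 1438 in mutants and 1717, 1354 and 1163 in controls. By limma the log2 differences were -0.37 ± 0.29 in spleen, -0.62 ± 0.26 in liver and -0.31 ± 0.10 in brain (SE), with adjusted p of 0.785, 0.774 and 1.00. Over all 4 tissues the average was -0.33 ± 0.09 (SE), with an unadjusted p of 0.00405 and an adjusted p of 0.249 by limma and 0.0373 by DESeq2. Of the 7 members tested in all tables, limma called 0 on average, where it called 0.306% of genes, and edgeR 0, where it called 0.315%; DESeq2 called Ldha where it called 1.42%. An unadjusted limma p under 0.05 for the average was seen for 2 of the 7, Ldha and Bnip3, and in 8.89% of genes.

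Ldha has many processed copies in the genome, whose reads can be hard to place. Of all stretches of 50 nt, the read length, in its mRNA, 49.3% were also found in another gene's transcripts with at most 2 mismatches, and 21 annotated pseudogenes in the tables held such stretches. With the signal of these copies added, spleen libraries overlapped, at 401 and 464 in mutants against 652 and 434 in controls. Liver stayed separated, at 503 and 507 in mutants against 613 and 703 in controls, and so did brain, at 187 and 177 in mutants against 218 and 189 in controls.

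Bnip3, a receptor on the outer mitochondrial membrane that leads mitochondria to autophagy, was higher in both mutants than in both controls in spleen and in liver. Taken singly, 18.3% of all genes were so in spleen and 23.5% in liver. Spleen values were low, 7.59 and 7.34 in mutants against 2.83 and 4.47 in controls, 2.05-fold higher. Liver values were 33.0 and 34.1 in mutants, against 26.6 and 27.5 in controls. In brain they were 9.17 and 10.3 in mutants, against 7.59 and 9.30 in controls, and the groups overlapped. Fibroblast mutants measured 174, 156 and 166, against 215, 153 and 135 in controls. limma gave log2 differences of 0.97 ± 0.36 in spleen, 0.31 ± 0.20 in liver and 0.20 ± 0.20 in brain (SE), with adjusted p of 0.763, 0.853 and 1.00. The average over tissues was 0.37 ± 0.11 (SE) with an unadjusted p of 0.0039 and an adjusted p of 0.245, and the F test between tissues had an adjusted p of 0.850. Of its 50-nt stretches 87.9% were also found in other genes, the most of any member. With its 3 pseudogene copies added, spleen measured 11.6 and 11.2 in mutants, against 3.998 and 6.26 in controls, and remained separated.

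Tested members whose 2 groups did not overlap numbered 2 higher (Bnip3 and Adm) and 1 lower (Ldha) in spleen, where 18.3% and 21.9% of all genes were separated in those directions. In liver they numbered 2 higher (Vegfa and Bnip3) and 2 lower (Ldha and Egln3), where 23.5% and 13.1% were. In brain they numbered 1 higher (Slc2a1) and 1 lower (Ldha) of 8, where 13.8% and 16.3% were; Adm, too low there to be tested, was also higher in both brain mutants. Fibroblasts, with 3 libraries a group, had 0 of 10 in either direction, where 2.07% and 1.65% were. With 2 libraries a group such separation is common, and the members' counts lie near these shares. In spleen, without mutant 2 or without control 1, the libraries with pancreatic markers, the log2 difference of Bnip3 was 0.99 or 0.68 and that of Ldha -0.56 or -0.24.

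**Figure D3:**
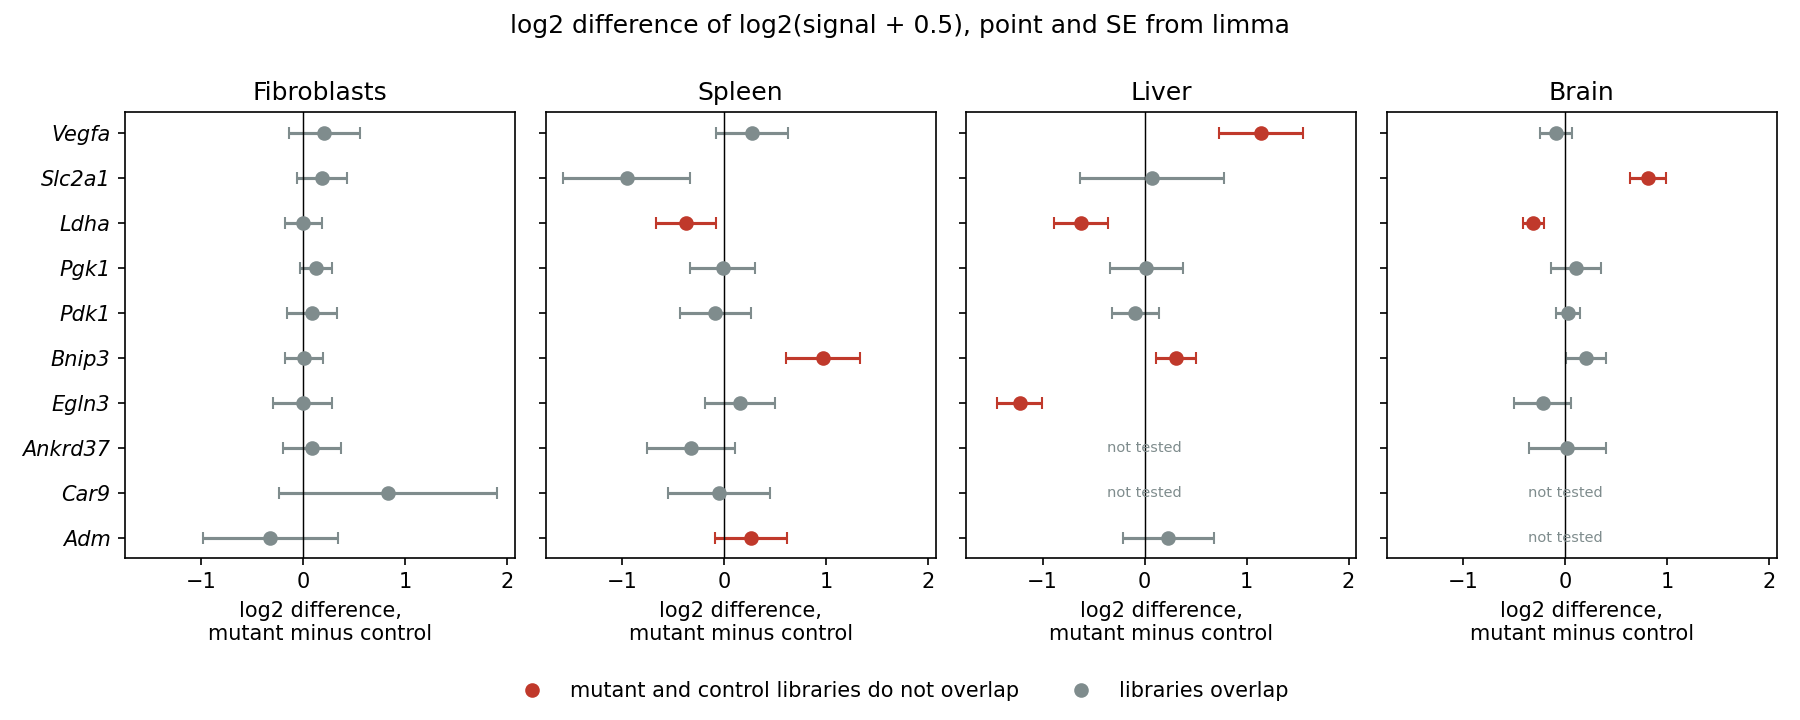
log2 difference of signal plus 0.5, mutant minus control, of each member in each tissue, with the standard error from limma. Red points mark members whose mutant and control libraries do not overlap: Slc2a1 (0.81) and Ldha (-0.31) in brain, Vegfa, Ldha, Bnip3 and Egln3 in liver, and Ldha, Bnip3 and Adm in spleen.

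Pgk1, the glycolytic phosphoglycerate kinase, is the member whose gene lies on the X chromosome. Fibroblast values were 621, 602 and 619.6 in mutants, a narrow group within the range of the controls, at 688, 535 and 484. Organ values were all low, 5.56 and 6.00 in spleen mutants against 5.65 and 6.02 in controls, 6.90 and 13.1 in liver mutants against 8.46 and 10.5 in controls, and 4.52 and 6.02 in brain mutants against 5.46 and 4.24 in controls. Mutants and controls overlapped everywhere. Of the stretches of read length in Pgk1 mRNA, 68.4% were also found in transcripts of other genes. The organ values rest on 70 to 383 reads of Pgk1 per library. The part of hard-to-place reads in these low values, and in the organ comparison of mutants and controls, was not tested. The log2 differences were 0.13 ± 0.16 in fibroblasts, -0.013 ± 0.32 in spleen, 0.018 ± 0.36 in liver and 0.11 ± 0.24 in brain (SE, limma). Their average was 0.059 ± 0.12, with an adjusted p of 0.926 by limma, which does not show that the levels were equal.

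Pdk1, a kinase that keeps pyruvate out of the mitochondrial citric acid cycle, had mutant libraries within or near the range of the controls in each tissue. It measured 127, 126 and 101 in fibroblast mutants against 154, 110.0 and 80.3 in controls, and 85.9 and 87.7 in spleen mutants against 124 and 68.3 in controls. Liver gave 41.4 and 33.1 in mutants against 42.7 and 36.4 in controls, and brain 43.3 and 46.3 in mutants against 44.0 and 43.7 in controls. Its average log2 difference was -0.015 ± 0.14 (SE).

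Ankrd37, an ankyrin repeat protein, and Car9, a carbonic anhydrase of the cell surface, were low in the organs. Ankrd37 measured 4.92, 2.72 and 3.01 in fibroblast mutants against 4.27, 2.94 and 2.63 in controls, and 0.52 to 3.12 in organ mutants against 0.28 to 2.24 in organ controls. Car9 differed more between fibroblast libraries of 1 genotype than between genotypes, at 3.90, 44.7 and 9.71 in mutants and 20.9, 6.48 and 1.91 in controls. Its organ values were 0.31 to 3.06 in mutants and 0.16 to 3.70 in controls. A signal of 3 reads is 0.103 to 0.225, so brain Car9 rested on few reads, and Ankrd37 in liver and Car9 in liver and brain were too low to be tested.

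Adm, the precursor of the vasodilator peptide adrenomedullin, varied between fibroblast cultures as well, at 48.3, 280.0 and 188 in mutants and 139, 264 and 137 in controls. Spleen values were 3.46 and 3.70 in mutants, against 2.69 and 3.10 in controls, a log2 difference of 0.27 ± 0.35 (SE). Liver gave 3.66 and 2.51 in mutants against 3.88 and 1.57 in controls. Brain Adm was too low to be tested, at 0.84 and 0.89 in mutants and 0.71 and 0.56 in controls, low values whose groups did not overlap.

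The order of tissues was compared in controls, with the limit that each table was scaled on its own, so levels stand side by side with no test. Vegfa was alike in spleen, 155 ± 60.8, fibroblasts, 153 ± 25.2, and liver, 120.1 ± 37.9, whose libraries overlapped, and lower in brain, 61.3 ± 10.4 (SD, n = 2, or 3 in fibroblasts). Slc2a1 followed at 196 ± 29.2 in fibroblasts, 169.5 ± 147 in spleen, 145 ± 122 in liver and 57.2 ± 4.29 in brain, with each neighbour in this order overlapping the next. Pdk1 was 115 ± 37.0 in fibroblasts and 96.4 ± 39.6 in spleen, which overlapped, then 43.8 ± 0.17 in brain and 39.5 ± 4.42 in liver. Egln3 was 36.4 ± 11.2 in fibroblasts, 16.8 ± 0.74 in liver, 11.1 ± 4.86 in brain and 9.64 ± 2.90 in spleen, the last pair overlapping. Adm was 179.8 ± 72.8 in fibroblasts and no more than 2.89 ± 0.29 in an organ, 62.1-fold higher in fibroblasts than in spleen; liver, at 2.72 ± 1.63, overlapped spleen, and brain was lowest at 0.634 ± 0.108. Ankrd37 was 3.28 ± 0.87 in fibroblasts, 1.93 ± 0.43 in brain, 1.57 ± 0.025 in spleen and 0.491 ± 0.296 in liver. Car9 was 9.75 ± 9.88 in fibroblasts, overlapping spleen at 2.61 ± 1.54, and 1.02 ± 0.37 in liver and 0.382 ± 0.309 in brain.

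Ldha, Pgk1 and Bnip3 were also highest in fibroblasts, at 1411 ± 281, 569 ± 106 and 168 ± 41.9 (SD, n = 3). In liver, the next highest tissue for all 3, they were 402 ± 64.0, 9.48 ± 1.44 and 27.1 ± 0.57 (SD, n = 2), so fibroblasts were 3.51-fold, 60.1-fold and 6.20-fold higher. Spleen gave 178 ± 22.1, 5.84 ± 0.26 and 3.65 ± 1.16, and brain 87.8 ± 2.32, 4.85 ± 0.86 and 8.45 ± 1.21. These 3 were the members with the most sequence shared with other genes, 49.3%, 68.4% and 87.9% of 50-nt stretches, while Ankrd37 had 15.7%, Car9 6.79% and the other 5 members 0% to 1.93%. Annotated pseudogenes took 0.284% to 0.351% of the signal in fibroblast libraries and 1.84% to 3.33% in organ libraries. Across the pathway genes tested in all tables, the 13 with at least 40% of stretches shared had a median fibroblast-to-organ ratio of 8.20 in controls, and 11 of them were higher in fibroblasts. The 68 genes with under 10% shared had a median ratio of 0.859, and 32 were higher. Among these 13, the glycolytic enzymes Pgam1, Gapdh, Eno1, Pkm, Aldoa and Gpi1 had ratios of 133, 52.5, 36.2, 16.1, 6.21 and 2.94, while Becn1 and Ldhb lay below 1, at 0.765 and 0.698. For Ldha, Pgk1 and Bnip3 a higher level in cultured fibroblasts and a different treatment of reads from repeated sequence in the 2 kinds of table cannot be told apart. Adm had 0.224% of its stretches shared with transcripts of other genes, but its levels too come from tables scaled separately.

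**Figure D4:**
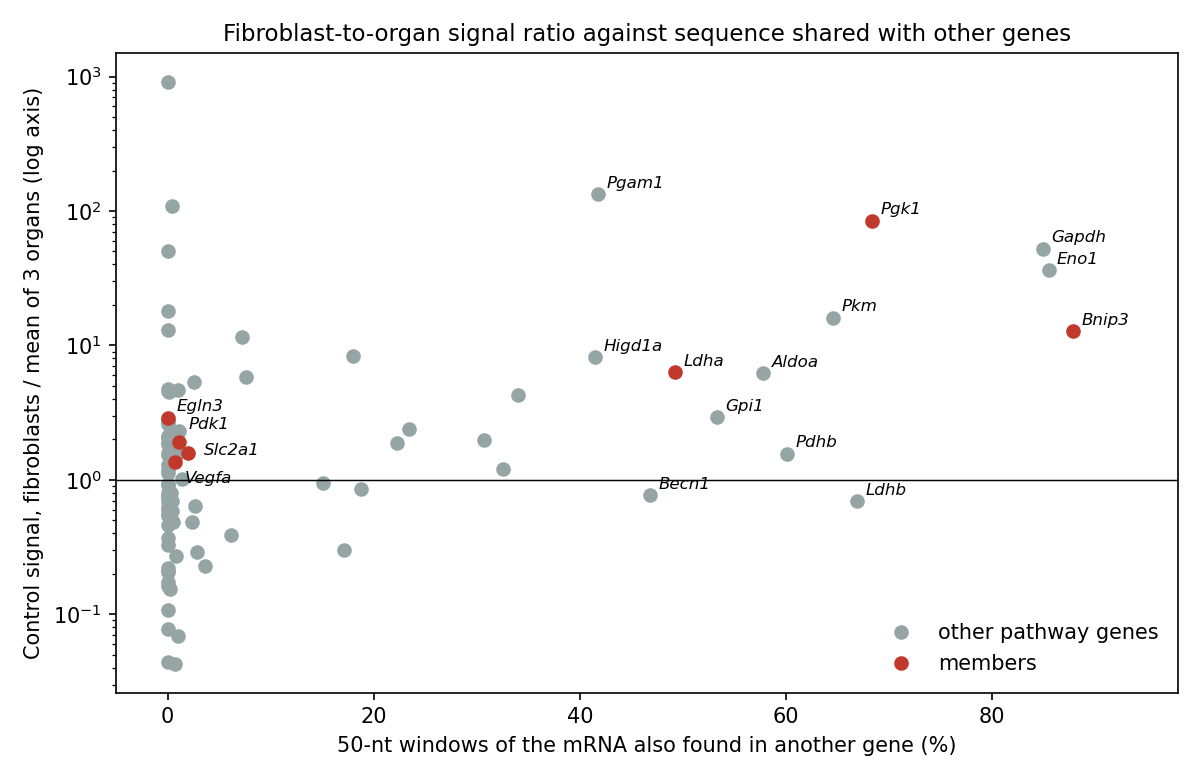
Control signal in fibroblasts divided by the mean of the 3 organs (log axis) against the percent of an mRNA's 50-nt windows also found in another gene, for members (red) and other pathway genes (grey) tested in all 4 tables. Bnip3, Pgk1 and Ldha sit at 87.9%, 68.4% and 49.3% with ratios above 6, beside Gapdh, Eno1 and Pkm; the 68 genes under 10% lie on both sides of 1.

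Per kilobase of annotated exon, which adjusts for length alone, Ldha had the highest control signal of the 10 in each tissue. It was 426 ± 84.9 in fibroblasts, 122 ± 19.3 in liver, 53.8 ± 6.69 in spleen and 26.5 ± 0.70 in brain (SD). By the mean of the controls Slc2a1 came next in each organ, and Vegfa after it. In spleen and liver that order rested on control 1: Slc2a1 per kilobase was 78.1 and 18.6 in spleen controls and 65.8 and 16.7 in liver controls, and in control 2 Vegfa was higher, at 46.2 and 34.3. In fibroblasts Pgk1 (254 ± 47.2) and Adm (111 ± 45.0) took those ranks. Car9 and Ankrd37 were the lowest in fibroblasts, spleen and liver, at 4.23 ± 4.29 and 2.13 ± 0.57 per kilobase in fibroblasts. The limit from shared sequence holds here too, so the ranks of Ldha, Pgk1 and Bnip3 are uncertain. Before division by length, the pseudogene copies of Ldha summed to a control mean of 365 in spleen and 116 in brain. Ldha itself had 178 and 87.8 there.

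The genes whose profile over the 18 libraries was nearest to a member's were found by the root mean square difference of centred log2 signal, among 11438 genes. They were Susd6 for Vegfa (0.35), Asns for Slc2a1 (0.44), Scpep1 for Ldha (0.28), Gapdh for Pgk1 (0.36), Tra2b for Pdk1 (0.24), Lurap1l for Bnip3 (0.57) and Sec31a for Egln3 (0.35), on the log2 scale. Gapdh shares 85.0% of its stretches with other genes, as Pgk1 does 68.4%.

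Genes upstream and downstream of the 10 members were followed in lists of the pathway. Among the HIF subunits and oxygen sensors, Hif3a, a HIF alpha subunit that can restrain the others, measured 42.1 and 32.7 in brain mutants, against 16.9 and 17.1 in brain controls, a log2 difference of 1.10 ± 0.16 (SE). Its adjusted p was 0.138 by limma and 3.43e-05 by DESeq2, and as single brain libraries were left out the p by limma ran from 0.00814 (without mutant 2) to 0.185 (without mutant 1), with a group of 1 library in each. In liver Hif3a measured 116 and 111 in mutants, against 73.1 and 25.6 in controls (adjusted p 0.740 by limma). Hif1a measured 204 and 145 in spleen mutants, against 95.1 and 109.7 in controls, with an adjusted p of 0.779 by limma. Epas1, the HIF-2 alpha subunit, had an average log2 difference of 0.47 ± 0.16 (adjusted p 0.386 by limma). Of the 9 genes of the list, 8, 9, 8 and 9 were tested in fibroblasts, spleen, liver and brain. limma called 0 in any tissue and DESeq2 called 1, Hif3a in brain. There limma called 0.0237% and DESeq2 0.242% of all genes. Those above 0 numbered 3, 6, 6 and 5 in that order of tissues, beside 48.9%, 43.5%, 55.9% and 46.1% of all genes. In liver 6 were higher and 1 lower in both mutants than in both controls, where 23.5% and 13.1% of all genes were.

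Other hypoxia targets held the clearest difference. Ddit4, an inhibitor of mTOR signalling induced by hypoxia and by other stresses, measured 164 and 84.4 in liver mutants, against 6.49 and 8.36 in liver controls. In spleen it measured 88.8 and 115 in mutants, against 11.4 and 23.0 in controls. Both organs had mutants several times above controls, while the log2 differences in fibroblasts and brain were -0.11 and 0.083. It rose on average over tissues by 1.62 ± 0.16 (SE) on the log2 scale with an adjusted p of 0.00025 by limma. Its response differed between tissues with an adjusted p of 0.00219 by limma's F test. Both tests took the libraries as independent, though spleen and liver of the same number may have come from the same pup. In spleen alone the adjusted p by limma was 0.205. With a group of 1 library it was 0.000168 without spleen mutant 1, 0.00344 without mutant 2, 0.407 without control 1 and 0.0566 without control 2. In liver alone it was 0.174, and DESeq2 gave 8.64e-07 in spleen and 3.17e-16 in liver. Of the 5 genes limma called for a difference between tissues, 0.0437% of those tested, Ddit4 was the only one in the pathway lists. Angptl4, a lipoprotein lipase inhibitor, measured 272 and 298 in liver mutants, against 97.0 and 101 in controls (log2 difference 1.52 ± 0.22, adjusted p 0.336 by limma and 6.11e-05 by DESeq2). Lox, the collagen crosslinking enzyme, measured 417 and 310.2 in spleen mutants, against 129 and 141 in controls (adjusted p 0.443 by limma and 0.0059 by DESeq2). The 6 fibroblast markers summed to 4748 and 2899 in spleen mutants, against 1762 and 2085 in spleen controls, so they were also higher in both mutants, and their part in the Lox difference was not tested. Edn1, the vasoconstrictor endothelin, measured 9.50 and 4.06 in brain mutants, against 1.80 and 1.33 in controls (adjusted p 0.475 by limma and 0.0088 by DESeq2). The value of 9.50 is 1 library: without brain mutant 2 the log2 difference was 2.28 with a limma p of 0.00378, and without mutant 1 it was 1.15 with a p of 1.00. Ndrg1, another gene induced by hypoxia, measured 44.9 and 68.8 in brain mutants, against 92.9 and 69.2 in controls (adjusted p 1.00 by limma). In spleen Ndrg1 lay the other way, at 161 and 139 in mutants, against 72.2 and 69.2 in controls (log2 difference 1.08 ± 0.26, adjusted p 0.534 by limma). Of 31 such genes, 29 were tested in fibroblasts, spleen and liver, 30 in brain and 27 on average. limma called Ddit4 on average, where it called 0.306% of all genes, and 0 in a single tissue. DESeq2 called 0 in fibroblasts, 2 in spleen, 3 in liver, 1 in brain and 1 on average, all higher in mutants. In that order it called 0.0229%, 0.989%, 1.35%, 0.242% and 1.42% of all genes.

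Among pyruvate and lactate genes, Pdk4, a sister kinase of Pdk1 induced by fasting, measured 91.6 and 119 in spleen mutants, against 8.07 and 17.5 in spleen controls. In liver it measured 145 and 133 in mutants, against 28.4 and 34.7 in controls, and in brain 7.04 and 5.26 in mutants, against 3.50 and 2.44 in controls. Mutants lay above controls in all 3 organs, unlike Pdk1. In spleen, liver and brain taken singly, 18.3%, 23.5% and 13.8% of all genes did. The log2 differences of Pdk4 were 3.08 ± 0.40, 2.13 ± 0.22 and 0.94 ± 0.26 (SE) in that order. The adjusted p by limma was 0.178, 0.184 and 0.873, and by DESeq2 2.63e-09, 4.29e-09 and 0.989; on average over tissues it was 0.0763 by limma and 0.000326 by DESeq2. With a group of 1 library, the spleen p by limma was 2.74e-06 without mutant 1, 9.34e-05 without mutant 2, 0.407 without control 1 and 0.0566 without control 2. The average p was 0.0419 without spleen control 2 and 0.00867 without fibroblast mutant 1, and reached 0.215 with other libraries left out. Slc16a1, a monocarboxylate transporter, measured 23.0 and 31.8 in brain mutants, against 35.2 and 49.4 in controls (adjusted p 1.00 by limma).

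Of the other glycolytic enzymes, 23 in the list, 17 were tested in fibroblasts, 19 in spleen, 18 in liver, 18 in brain and 15 on average. limma and DESeq2 called 0 in each of these comparisons, and 1, Pfkp, had an unadjusted limma p under 0.05, on average. In spleen 6 of 19 tested were above 0, with a median log2 difference of -0.31, beside 43.5% above 0 and a median of -0.071 for all genes. Gapdh measured 19.2 and 26.0 in spleen mutants against 31.3 and 36.2 in controls, and Tpi1 91.0 and 119.8 in mutants against 183 and 129.8 in controls. Pklr, the pyruvate kinase of red cells and liver, measured 112 and 86.1 in spleen mutants against 524 and 66.1 in controls, and Hk1, the hexokinase of red cells and many others, 143 and 126 in mutants against 362 and 144 in controls; both were picked after their values were seen. Tpi1, Pklr and Hk1 were highest in spleen control 1, which also had the highest erythroid sum, 40217, while Gapdh was highest in control 2. The part of red cell content in the spleen values was not tested. In brain Tpi1 measured 106 and 99.4 in mutants against 119 and 119 in controls. The medians were 0.0030 in fibroblasts, -0.0072 in liver and -0.014 in brain. Among glucose transporters other than Slc2a1, Slc2a13 measured 28.7 and 18 in spleen mutants against 6.27 and 7.75 in controls (log2 difference 1.63 ± 0.35, adjusted p 0.443 by limma and 0.0113 by DESeq2), and Slc2a12 measured 13.1 and 9.81 in brain mutants against 6.99 and 8.02 in controls (adjusted p 1.00 by limma).

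VEGF ligands and receptors beyond Vegfa were above 0 in 9 of 9 tested in spleen, with a median of 0.38, and in 7 of 8 in liver, with a median of 0.32, while 43.5% and 55.9% of all genes were above 0 there. In fibroblasts and brain 3 of 7 and 3 of 8 were above 0. Vegfd, an X-linked ligand of lymphatic vessels, measured 13.6 and 7.02 in spleen mutants against 5.38 and 3.64 in controls, and 5.61 and 3.40 in liver mutants against 2.23 and 1.81 in controls (adjusted p 0.779 and 0.718 by limma). The 6 endothelial markers summed to 1089 and 703 in spleen mutants, against 471 and 639.8 in spleen controls, so they were higher in both mutants too, and their part was not tested. Ramp2, a partner of the adrenomedullin receptor, measured 77.4 and 52.4 in spleen mutants against 31.8 and 37.3 in controls (adjusted p 0.760 by limma). Of the adrenomedullin signalling genes, 5 of 5 tested were above 0 in spleen, with a median of 0.73, 4 of 4 in liver (0.29), 3 of 5 in fibroblasts (0.12) and 2 of 5 in brain (-0.028), and 0 were called by limma or DESeq2.

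Mitophagy genes, among which Bnip3 acts, were above 0 in 6 of 9 in spleen and 8 of 9 in liver, with medians of 0.32 in each, where 43.5% and 55.9% of all genes were. In fibroblasts 3 of 9 were above 0 (median -0.032) and in brain 6 of 9 (median 0.013), where 48.9% and 46.1% of all genes were, and 0 were called by limma in any tissue. Gabarapl1, an autophagosome protein, measured 275 and 225 in liver mutants, against 85.4 and 115 in controls (log2 difference 1.33 ± 0.27, adjusted p 0.515 by limma and 0.0114 by DESeq2). Fundc1, an X-linked mitophagy receptor, measured 14.1 and 16.9 in brain mutants against 9.67 and 8.57 in controls, and 21.4, 22.3 and 18.5 in fibroblast mutants against 14.7, 14.4 and 17.5 in controls. Its average log2 difference was 0.44 ± 0.10 (SE), with an adjusted p of 0.0805 by limma and 0.00171 by DESeq2. Of the 15 carbonic anhydrases other than Car9, 7 were tested in fibroblasts, 7 in spleen, 7 in liver, 10 in brain and 1 on average, and 0 of those tested were called by limma or DESeq2. Car12 measured 12.8, 15.0 and 11.1 in fibroblast mutants against 9.35, 8.32 and 8.90 in controls, with an unadjusted p of 0.0171 and an adjusted p of 1.00 by limma.

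**Figure D5:**
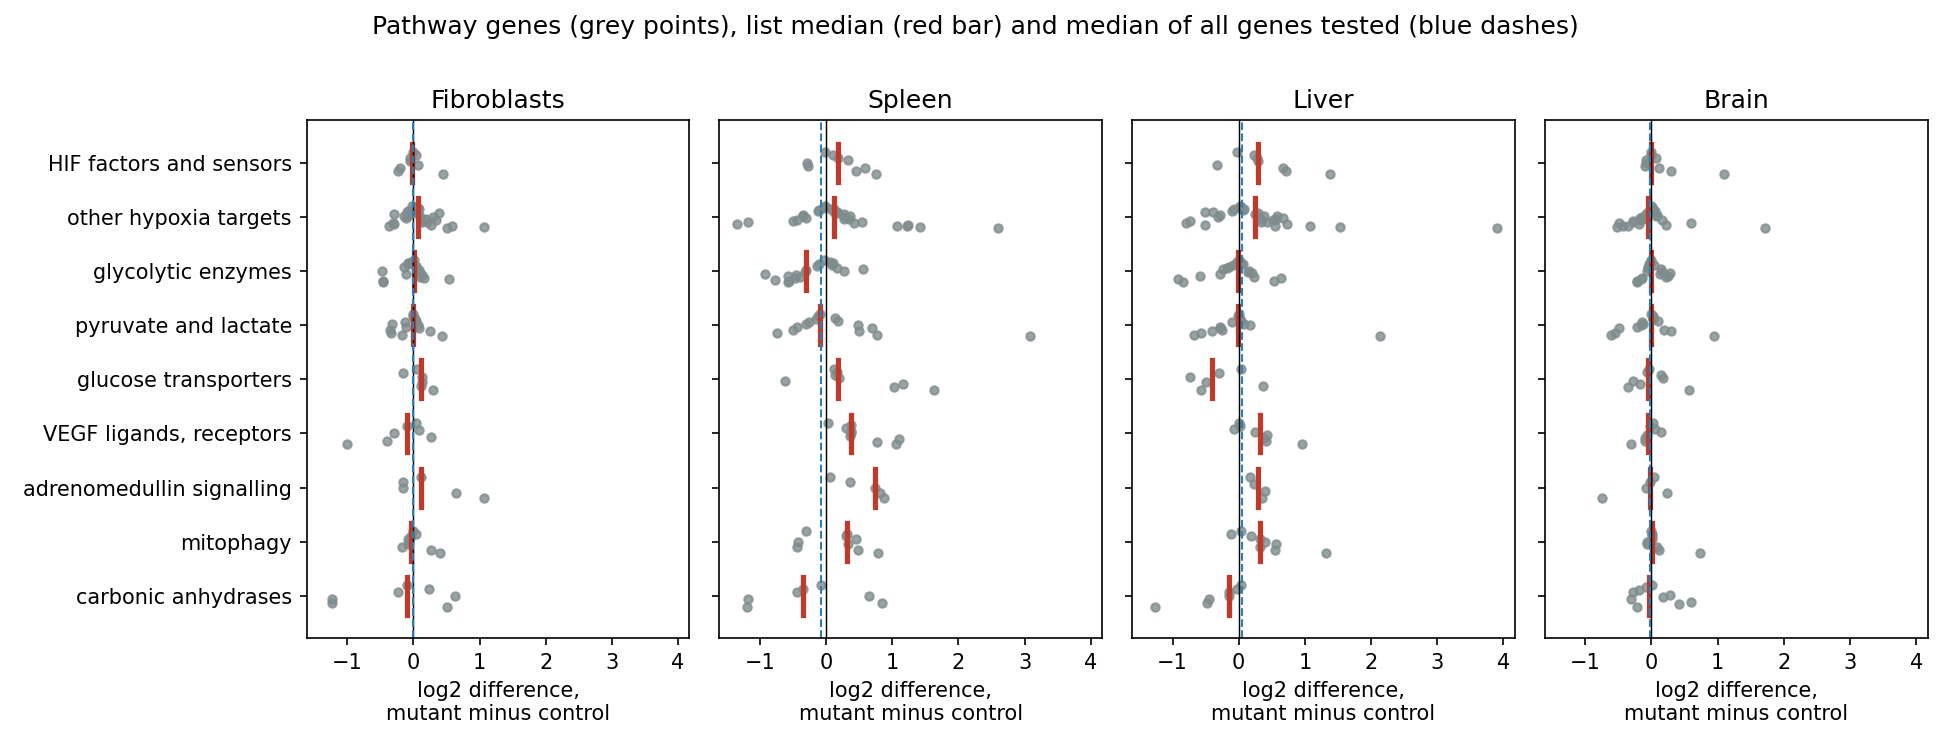
log2 difference, mutant minus control, of every tested gene of 9 pathway lists (grey points) in each tissue, with the list's median (red bar) and the median of all genes tested (blue dashes). The points farthest to the right are Ddit4 in liver (3.91) and spleen (2.60) and Pdk4 in spleen (3.08) and liver (2.13); most list medians lie within 0.4 of 0.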

How the data were processed

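Per the labels' protocols, total RNA was extracted with Trizol, depleted of ribosomal RNA with RiboMinus and turned into libraries; per the design text, reads of 50 nt came from Illumina HiSeq instruments and replicates were biological. Per the submitters' processing notes, genes were counted with HTSeq 0.6.1 and scaled with edgeR on GRCm38; the sources used here do not state the aligner, the annotation release or any use of strand. The deposited signal is the authors' scaled count, in 4 tables normalized separately; 100% of nonzero values were whole multiples of 1 read at a tolerance of 0.05, so reads were recovered. Of 46078 identifiers, 45229 matched GENCODE mouse release 21; the other 849, with up to 0.179% of the reads of a library, were not tested.

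The members and all lists were chosen with earlier results of these data known. In each table, limma 3.58.1 (R 4.3.3, trend, two-sided) was fitted to log2(signal + 0.5) of genes with a mean of at least 1, with Benjamini-Hochberg adjustment over all of them at 0.05. A joint fit of the 8 groups gave the average over tissues and the F test between tissues. It took all libraries as independent, so its p values make no allowance for organs that may have come from the same pup. Fold changes on this scale understate low genes. DESeq2 1.42.0 and edgeR 4.0.16 (quasi-likelihood) on recovered reads, other pseudocounts, no filter, another scaling, a replicate block and left-out libraries were alternatives; a sum of each member with its pseudogene copies was added after the data were seen. Shared 50-nt stretches were found with bwa 0.7.19. The fits were tested on simulated data. The genes named are the members, Xist and the nearest profile of each member tested in all tables. List genes are named if past the threshold or among the 2 smallest p of a list in a tissue, and the main ones are printed. Outside this rule, Pgam1, Eno1, Pkm, Aldoa, Gpi1, Becn1, Pklr and Hk1 were chosen after their values were seen. Intervals and limits from reads cover counting error only.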

Additional observations from a re-analysis of the deposited data

Results flagged for a closer look

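Ddit4 was singled out because its response differed between tissues by a test of the difference itself, the F test of limma over all 8 groups (adjusted p = 0.00219, F = 39.4). The test took the libraries as independent, which would not hold if organs of the same number came from the same pup. Its log2 difference, mutant minus control, was 3.91 in liver and 2.60 in spleen, and -0.11 in fibroblasts and 0.083 in brain. The adjusted p ran from 0.000956 to 0.0197 as each of the 18 libraries was left out in turn. No member had such a difference: their adjusted p values were 0.850 for Bnip3, 0.929 for Egln3 and 1.00 for the other 5 that were tested.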

How the results depend on the processing

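With 2 libraries a group the tests had little power, and no member passed limma's threshold in a tissue with all libraries in; leaving out brain mutant 2, which sets 1 mutant library against 2 close controls, brought Slc2a1 in brain past it (log2 difference 1.11, adjusted p 0.00378), and leaving out mutant 1 gave 0.52 and 1.00. Counts of genes called moved with the test. DESeq2 on recovered reads called 3 genes in fibroblasts, 164 in spleen, 204 in liver, 41 in brain and 163 on average over tissues, against 0, 0, 0, 4 and 35 by limma. With no filter on low values limma called 22 in spleen, 11 in liver, 13 in brain, 83 on average and 51 for a difference between tissues (5 with the filter). Same-numbered libraries are not stated to be pairs, and their deviations correlated at -0.080, 0.432 and 0.023 in fibroblasts, -0.026 in spleen, 0.585 in liver and 0.078 in brain; with the replicate number as a block, 356 genes were called in spleen and 60 in liver, none of them a member. Of the other named genes, the block brought Ddit4, Pdk4 and Angptl4 in liver, Ddit4, Pdk4, Lox and Slc2a13 in spleen and Pdk4 on average past the threshold. A spread shared over all 8 groups did so for Ddit4 (4.99e-05) and Gabarapl1 (0.0281) in liver and for Ddit4 (0.00555), Lox (0.0364) and Slc2a13 (0.00935) in spleen (adjusted p by limma). Without the filter Hif3a in brain (0.0329), Ddit4 in liver (0.0161) and spleen (0.0213) and Pdk4 in spleen (0.00875) passed it. None of these was a member. As each library was left out, calls ran from 0 (without either control) to 173 (without mutant 2) in spleen, 170 without mutant 1, and from 6 to 112 (without control 2) in brain. They ran from 20 (without brain mutant 1) to 99 (without spleen control 2) on average, and from 4 to 30 (without liver mutant 2) for a difference between tissues, and stayed at 0 in fibroblasts and liver. Ddit4 kept its call on average and between tissues in each of these.

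Some directions turned, those of Slc2a1 in spleen (-0.96 with all libraries) and Car9 in fibroblasts (0.83) among them. Slc2a1 in liver was -0.25 by DESeq2 and -0.26 by edgeR, against 0.072 by limma, and on average -0.12 and -0.093, against 0.028. Bnip3 in fibroblasts was -0.027 by DESeq2, -0.022 by edgeR and -0.00042 with median-of-ratios scaling, against 0.0071. Pgk1 was 0.046 by edgeR in spleen, and -0.026 with that scaling and -0.0085 with its copies summed in liver, and Ldha 0.0049 with copies summed in fibroblasts. The members' median in brain was 0.095 by edgeR, against 0.027. With each library left out, the medians ran from -0.085 to 0.23 in fibroblasts, -0.096 to 0.19 in spleen, -0.26 to 0.18 in liver and -0.11 to 0.18 in brain. Single genes that changed sign had the following ranges of log2 difference. In fibroblasts they were Vegfa -0.13 to 0.55, Slc2a1 -0.033 to 0.41, Ldha -0.13 to 0.15, Pdk1 -0.15 to 0.32, Bnip3 -0.14 to 0.20, Egln3 -0.26 to 0.20, Ankrd37 -0.14 to 0.27, Car9 -0.086 to 1.63, Adm -0.84 to 0.42, Ramp2 -0.24 to 1.15, Vegfd -0.69 to 0.18, Pdk3 -0.27 to 0.0035 and Slc2a13 -0.034 to 0.24. In spleen they were Vegfa -0.14 to 0.68, Slc2a1 -1.99 to 0.074, Pgk1 -0.065 to 0.038, Pdk1 -0.52 to 0.34, Egln3 -0.14 to 0.46 and Car9 -0.58 to 0.48. In liver they were Slc2a1 -0.91 to 1.05, Pgk1 -0.42 to 0.46, Pdk1 -0.25 to 0.070 and Adm -0.31 to 0.77. In brain they were Vegfa -0.27 to 0.080, Pgk1 -0.083 to 0.29, Pdk1 -0.016 to 0.078, Egln3 -0.66 to 0.22, Ankrd37 -0.54 to 0.58, Pink1 -0.039 to 0.26, Ackr3 -0.063 to 0.54 and Kdr -0.23 to 0.026. On average over tissues they were Slc2a1 -0.23 to 0.29, Pgk1 -0.051 to 0.17 and Pdk1 -0.12 to 0.092. The cause of these changes was not tested. Pseudocounts of 0.1 and 1 changed no member's direction or call.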
